A study of Mus musculus with 3 samples.

Results

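Genes of innate sensing and cytokine signalling were compared between mouse liver and mouse spleen: the Toll-like receptors (Tlr), their adaptor Myd88, the TRAF adaptors, the NF-kB and IkB proteins, the NLRP proteins, and the JAK, STAT, SOCS and IRF families. Members were chosen by a rule on gene symbols (Irf, Stat, Socs, Jak, Tlr, Traf or Nod followed by a digit, Nlrp or Nfkb at the start, Rel, Rela, Relb or Myd88), with Irf8 left out. The rule, set with earlier results of these data known, gave 44 genes of the 10698 named on the array. They had 61 probes of 16281, of which 13738 carried a single gene symbol. No Nod gene was among them. Each of 3 two-colour oligonucleotide arrays carried a purchased spleen total RNA in the green dye (Cyanine-3) and a purchased liver total RNA in the red dye (Cyanine-5), both made into cRNA with 1 round of amplification. Both RNAs were untreated commercial products as far as the labels go, and strain, age, sex and number of animals are not given in them. The arrays therefore repeat 1 pair of RNA products, and every SD and p-value here reflects how far these arrays differ, which can be purely technical variation. The dyes were never exchanged, so dye bias of a probe and tissue difference cannot be told apart.

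These families form a relay from the cell surface to the nucleus. Toll-like receptors bind microbial molecules, and most of them pass the signal through MyD88 and TRAF6 to NF-kB, whereas Tlr3 uses the adaptor TRIF, and other TRAF proteins serve receptors of the TNF family. Cytokine and hormone receptors instead use JAK kinases, which phosphorylate STAT transcription factors, and SOCS proteins are made in response and shut the receptors off. IRF transcription factors act beside both routes and drive interferon genes. Spleen is rich in lymphocytes and myeloid cells that use all of these routes, whereas hepatocytes answer chiefly to IL-6 type cytokines and growth hormone.

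All values are log2 ratios, read as liver over spleen: a negative value means more signal in the spleen RNA, and -1 is 2-fold. No level in either tissue can be read from them. The order of the ratio is not stated in the labels and was called likely from markers: the median of measured hepatocyte marker probes was 5.18, 5.07 and 4.60 on arrays 1, 2 and 3, and that of B cell marker probes -1.38, -1.33 and -0.66. A probe listed at exactly 0 was taken as not measured on that array. Of the 61 member probes, 56 were measured on all 3 arrays and tested against 0 with limma together with all 14122 such probes. Across those probes Pearson's r between arrays lay between 0.933 and 0.948, as a description only. Probes with an adjusted p (Benjamini-Hochberg, over all 14122 probes) below 0.05 are called past the test.

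The immune-signalling genes lay toward spleen, by modest amounts. Of the 56 tested member probes, 30 passed the test toward spleen and 6 toward liver, and 20 did not pass. Among all probes tested, 26.7% passed toward spleen and 23.5% toward liver, and 50.2% passed in either direction. At 2-fold or more, 12 member probes of 9 genes were past the test toward spleen, against 9.13% of all probes (18.0% in either direction). These genes were Jak1, Jak2, Relb, Socs1, Tlr1, Tlr2, Tlr4, Traf1 and Traf5. Toward liver there were 2, a probe of Socs2 and the probe of Nlrp5, against 8.85% of all probes. The median member was at -0.41 and the median of all tested probes at 0.02. The lower quartile was -0.82 for members and -0.37 for all probes, and the upper quartile 0.08 and 0.27. No member reached the sizes of the extremes of the table: members ran from -2.28 to 1.22, all probes from -4.44 to 6.23. On each array most members fell below 0, 38 of 56 on array 1, 37 on array 2 and 40 on array 3. The count toward liver fell from 6 to 3 without array 2. The pair at 2-fold or more toward liver became 1 without array 1 and 0 without array 2. Of all tested probes, 50.2% passed with 3 arrays, and 38.4%, 38.1% and 43.1% without arrays 1, 2 and 3. A call lost on leaving out an array therefore need not rest on that array. With exact zeros kept as ratios, Irf5, Nlrp5, Stat4 and single probes of Nfkbiz, Socs1, Traf1 and Traf4 no longer passed, although their means were unchanged.

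**Figure D1:**
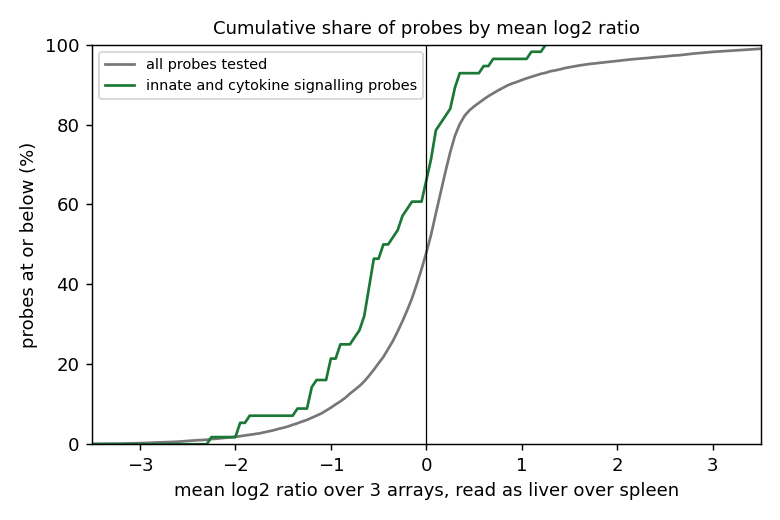
Cumulative share of probes (vertical axis, percent) at or below each mean log2 ratio over 3 arrays (horizontal axis, liver over spleen), for the 56 tested member probes and for all 14122 tested probes. The member curve lies to the left of the other from -1.95 upward, with a median of -0.41 against 0.02, and the curves cross below that.

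Most markers of immune cell types that passed the test did so toward spleen, as did most members that passed. Past the test toward spleen were 5 of 8 tested B cell marker probes, 5 of 9 T cell, 5 of 7 macrophage, 7 of 12 neutrophil and 5 of 8 dendritic cell probes, with list medians of -1.11, -1.22, -1.98, -0.74 and -0.68. Among all tested probes, 26.7% passed toward spleen and 23.5% toward liver. The B cell and hepatocyte markers had been used to read the order of the ratio, so their direction is no separate result. Toward liver passed 2 neutrophil probes, Ly6g at 2.61 ± 0.26 and 1 of 3 S100a8 probes at 0.52 ± 0.06, and 1 dendritic cell probe, of Xcr1 at 0.30 ± 0.09. Of the 5 Kupffer cell probes, which mark the resident macrophages of liver, 3 passed toward liver and 1 toward spleen, with a median of 0.82. The 3 tested hepatocyte probes had a median of 4.97. Ttr and Apoa1 probes were listed at 0 on every array. The part of cell makeup in the member ratios was not tested, and in bulk RNA fewer cells of a type and less RNA per cell cannot be told apart.

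Promoter sequences are shown for some of the members furthest toward spleen and for genes whose upstream bases hold a binding motif of the very factors listed here. RefSeq promoters (GRCm38.p6) were found for 38 of the 44 member genes, 49 starts in all, and the 250 bases before each start were searched on both strands for 4 motifs. GAS, the site of STAT dimers, was searched as TTCNNNGAA. ISRE, the site of the STAT and IRF9 complex and of IRFs, was searched as GAAA, any 2 bases and GAAA again. NF-kB was searched by its consensus, and PU.1, a myeloid and B cell factor, as GAGGAAGT. Capitals mark a match.
Tlr1, upstream start, chr5:64933559-64933808, minus strand: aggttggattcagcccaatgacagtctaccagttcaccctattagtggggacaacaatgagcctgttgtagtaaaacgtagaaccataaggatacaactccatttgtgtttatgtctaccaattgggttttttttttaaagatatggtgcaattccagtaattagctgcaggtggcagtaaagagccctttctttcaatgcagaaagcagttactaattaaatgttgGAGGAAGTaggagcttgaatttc
Tlr2, chr3:83841609-83841858, minus strand: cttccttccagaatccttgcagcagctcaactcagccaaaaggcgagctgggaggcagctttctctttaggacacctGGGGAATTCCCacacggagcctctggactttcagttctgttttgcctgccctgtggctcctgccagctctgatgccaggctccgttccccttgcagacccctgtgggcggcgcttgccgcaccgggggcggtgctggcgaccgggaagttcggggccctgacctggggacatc
Socs1, chr16:10785537-10785786, minus strand: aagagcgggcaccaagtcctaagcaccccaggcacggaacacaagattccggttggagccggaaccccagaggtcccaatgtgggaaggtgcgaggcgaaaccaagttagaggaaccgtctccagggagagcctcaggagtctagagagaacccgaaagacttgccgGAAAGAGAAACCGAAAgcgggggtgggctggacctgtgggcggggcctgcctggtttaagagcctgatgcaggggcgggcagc
Irf1, upstream start, chr11:53769764-53770013, plus strand: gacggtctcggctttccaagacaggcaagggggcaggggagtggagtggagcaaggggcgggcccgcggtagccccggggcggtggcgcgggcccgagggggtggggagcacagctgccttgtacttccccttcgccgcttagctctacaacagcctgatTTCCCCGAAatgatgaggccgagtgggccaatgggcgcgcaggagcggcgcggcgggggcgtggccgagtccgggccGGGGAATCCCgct
Socs3, chr11:117969367-117969616, minus strand: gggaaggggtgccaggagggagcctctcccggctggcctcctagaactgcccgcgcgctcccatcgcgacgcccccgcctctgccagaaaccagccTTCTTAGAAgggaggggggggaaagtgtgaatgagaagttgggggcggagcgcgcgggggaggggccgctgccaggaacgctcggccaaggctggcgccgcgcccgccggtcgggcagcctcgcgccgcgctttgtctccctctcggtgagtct
Jak2, chr19:29251553-29251802, plus strand: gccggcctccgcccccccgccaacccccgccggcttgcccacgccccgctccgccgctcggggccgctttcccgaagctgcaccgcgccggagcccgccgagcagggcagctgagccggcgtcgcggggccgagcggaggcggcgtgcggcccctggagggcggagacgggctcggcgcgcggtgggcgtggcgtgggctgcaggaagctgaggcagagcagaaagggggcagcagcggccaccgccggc
Traf5, chr1:192092600-192092849, minus strand: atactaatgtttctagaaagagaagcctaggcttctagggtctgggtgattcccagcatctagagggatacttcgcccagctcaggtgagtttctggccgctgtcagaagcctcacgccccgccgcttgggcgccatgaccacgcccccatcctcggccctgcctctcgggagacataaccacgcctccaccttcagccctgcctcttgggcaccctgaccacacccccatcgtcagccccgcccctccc

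In these windows Tlr1 held a PU.1 match beginning 23 bases before the start shown, and its downstream start, not shown, a GAS match at 228 bases. Tlr2 held overlapping NF-kB matches beginning 173 and 172 bases before its start. Socs1, itself a brake on interferon signalling, held overlapping ISRE matches beginning at 83 and 77 bases. Irf1 held a GAS match at 90 and an NF-kB match at 13 bases, and Socs3 a GAS match at 154 bases. Jak2 and Traf5, among the members furthest toward spleen, are shown because their windows held none of the 4 motifs. The windows of Jak1 and Traf1, not shown, held none either. No promoter was found for Nfkbiz, Relb, Socs2, Socs5, Socs6 and Tlr4. Over the 49 member promoters, 6 held GAS, 6 ISRE, 11 NF-kB and 3 PU.1. The 11 with NF-kB belonged to 9 genes, because more than 1 start of Nfkb2 was counted. Among all 32851 promoters of the same length the shares were 7.02%, 2.98%, 3.9% and 2.44%. A match is a run of letters, and no binding was measured here.

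Of the receptors, Tlr1 stood furthest toward spleen and Tlr5 alone passed toward liver. Of the 9 tested TLR probes, 6 passed toward spleen and 1 toward liver, with a median of -0.94. The 6 came from 4 genes and made up 66.7%, against 26.7% of all tested probes. Tlr1, which pairs with Tlr2 to sense bacterial lipopeptides, read -2.57, -2.28 and -1.99 on arrays 1, 2 and 3, a mean of -2.28 ± 0.29 (SD, n = 3) or 4.86-fold (limma adjusted p = 9.43e-05). This was the lowest mean of any member probe, and 1.18% of all tested probes lay below it. Its partner Tlr2 read -1.25, -1.32 and -1.03 on one probe and -1.19, -1.26 and -1.13 on the other. The probes of Tlr2 thus gave almost the same ratio, -1.20 ± 0.15 and -1.19 ± 0.06, and every array lay beyond 2-fold. Tlr3, the receptor for double-stranded RNA, averaged -0.94 ± 0.23 (adjusted p = 0.00132), just short of 2-fold.

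Tlr4, the receptor for lipopolysaccharide, depended on the probe. Probe 596 read -0.74, -1.33 and -1.02, and probe 2936 read -0.49, -0.60 and -0.60, both past the test toward spleen. Probe 8764 read 0.25, -0.02 and 0.43 and did not pass (adjusted p = 0.153). Tlr5, the flagellin receptor, read 0.59, 0.71 and 0.36 on probe 9099, a mean of 0.55 ± 0.18 toward liver (adjusted p = 0.00669). Its other probe read 0.64 and 0.44 on arrays 1 and 3 and was listed at 0 on array 2, so both Tlr5 probes were above 0 wherever measured. Tlr9, the receptor for unmethylated DNA, did not pass at 0.07 ± 0.18. The Tlr6 probe was listed at 0 on every array and has no ratio.

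Downstream of the receptors, Myd88, the adaptor of most but not all of them, did not pass the test. Its probe read 0.03, -0.03 and -0.04, a mean of -0.02 ± 0.04 (adjusted p = 0.882). The TRAF family, by contrast, passed at every tested probe, in both directions: 6 toward spleen, from Traf1, Traf2 and Traf5, and 3 toward liver, from Traf4 and Traf6. Among all tested probes, 26.7% passed toward spleen, 23.5% toward liver and 50.2% in either direction. Traf5, an adaptor of TNF receptors in lymphocytes, read -1.97, -2.02 and -1.66 on probe 1639 and -1.48, -1.13 and -1.04 on probe 4389. Both probes were beyond 2-fold on all arrays, with means of -1.88 ± 0.19 (adjusted p = 8.7e-05) and -1.22 ± 0.23 (adjusted p = 0.000507). Traf1, an NF-kB target in activated lymphocytes, read -0.94, -1.12 and -1.09 on probe 10571, with little spread. On probe 11100 it read -1.15, -0.47 and -0.33, and this probe did not pass without array 1, where its mean was -0.40, or without array 2, where it was -0.74.

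Traf2, which links TNF receptors to NF-kB, averaged -0.59 ± 0.20 on probe 12631 and -0.35 ± 0.04 on probe 10572. The latter failed when array 1 was dropped (adjusted p = 0.0669), and array 2 was needed too (0.0703 without it). A further Traf2 probe read -0.03 and 0.06 on arrays 2 and 3 and was listed at 0 on array 1. Traf4, a TRAF that is widely expressed in epithelia, went the other way. Its probe 1781 read 0.75, 0.65 and 0.70, a mean of 0.70 ± 0.05 (adjusted p = 0.00114). Probe 6072 averaged 0.32 ± 0.17, and its adjusted p of 0.0422 rose to 0.0781, 0.0901 and 0.147 without arrays 1, 2 and 3. Traf6, the TRAF of the Toll-like and IL-1 receptors, averaged 0.255 ± 0.06. Its adjusted p of 0.0446 rose to 0.139, 0.164 and 0.0927 without arrays 1, 2 and 3. With each array centred on its median, Traf6 and this Traf4 probe did not pass (adjusted p = 0.0575 and 0.0581). All Traf4 and Traf6 readings were above 0, but the arrays share 1 dye orientation, so the common sign cannot tell tissue from dye bias.

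Among the NF-kB subunits, RelB was the one past 2-fold toward spleen, and RelA and NF-kB2 did not pass the test. The 10 tested probes of NF-kB and IkB genes had 5 past the test toward spleen and none toward liver, with a median of -0.38. RelB, a subunit of the non-canonical pathway that shapes lymphoid tissue, read -0.97, -1.21 and -0.92, a mean of -1.03 ± 0.15 (adjusted p = 0.00048). Rela, the ubiquitous p65 subunit, read 0.19, 0.25 and 0.14, a mean of 0.19 ± 0.06 (adjusted p = 0.0967). Nfkb2, which encodes the partner of RelB, averaged -0.28 ± 0.17 (adjusted p = 0.0599). The lymphocyte subunit c-Rel (Rel) read -0.55, -0.93 and -0.44 on probe 16221, past the test, and 0.26, 0.13 and 0.41 on probe 11142, not past it (adjusted p = 0.0581). On every array the second Rel probe lay above the first, by 0.91 ± 0.14.

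The IkB proteins hold NF-kB in the cytoplasm or adjust it in the nucleus. Nfkbia, the classical inhibitor and itself an NF-kB target, read -0.67, -0.56 and -0.48 (adjusted p = 0.00317). The nuclear IkB protein Nfkbiz averaged -0.73 ± 0.26 and -0.48 ± 0.25 on its probes, and the latter did not pass without array 2, where its mean was -0.34 (adjusted p = 0.068). Nfkbie at 0.04 ± 0.19 and the IkB-like gene Nfkbil1 at 0.12 ± 0.13 did not pass. Nfkbib had a single measurement, -2.30 on array 2, with exact zeros on the remaining arrays, so its size has no repeat.

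The NLRP members were Nlrp5 and Nlrp4c, with 1 probe each. Nlrp5, known as an oocyte protein, read 2.01, 1.09 and 0.56, a mean of 1.22 ± 0.73 toward liver. This was the highest mean and the widest spread of any tested member probe. Its adjusted p of 0.0144 became 0.0574 without array 2. Nlrp4c, of the same oocyte-expressed group, averaged 0.09 ± 0.15 (adjusted p = 0.456).

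**Figure D2:**
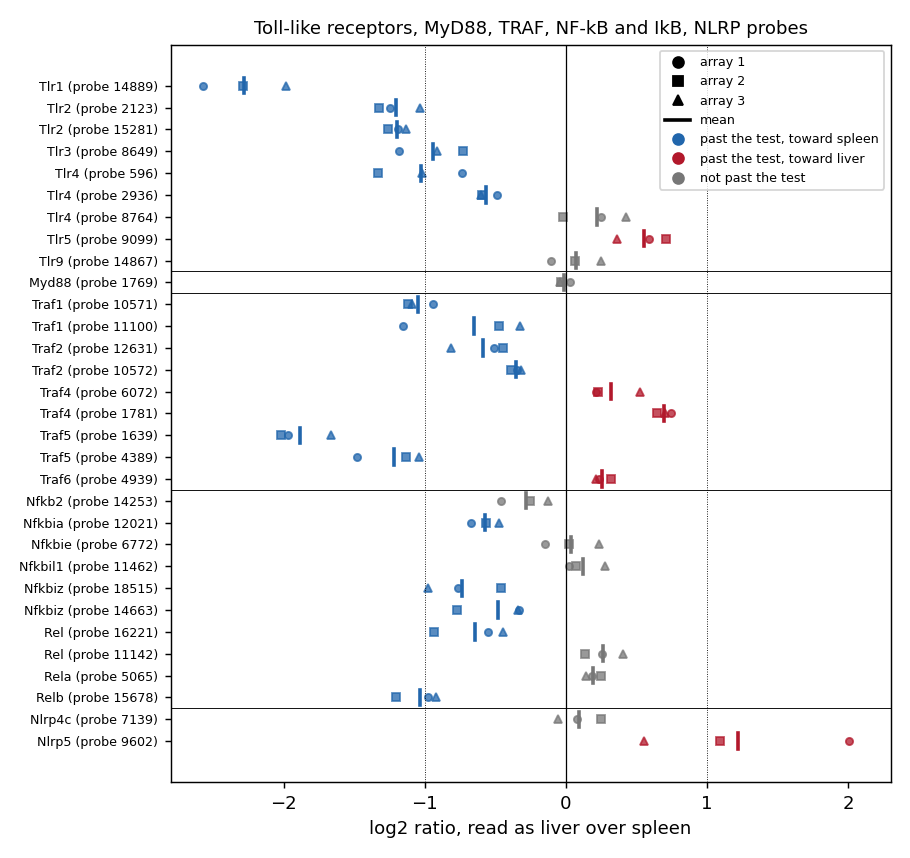
Log2 ratio (horizontal axis, liver over spleen) on each of 3 arrays, by marker shape, and the mean (bar) for each tested probe of the Toll-like receptors, Myd88, TRAF, NF-kB and IkB, and NLRP genes. Tlr1 and Traf5 lie furthest to the left. Tlr5, Traf4, Traf6 and Nlrp5 are the genes past the test on the right, and dotted lines mark 2-fold.

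In cytokine signalling, the median of the JAK probes lay further toward spleen than that of the STAT probes, -1.66 against -0.22, a difference that was not tested. The JAK median is over 4 probes of 3 genes, with Jak2 counted on 2 probes. The families overlapped, with Jak3 nearer to 0 than Stat4. All 4 JAK probes passed toward spleen, 3 of them beyond 2-fold. Jak2, the kinase of the erythropoietin, thrombopoietin and growth hormone receptors, read -2.01, -1.87 and -2.02 on one probe and -2.03, -2.03 and -1.82 on the other. The means, -1.97 ± 0.08 (adjusted p = 3.84e-05) and -1.96 ± 0.12 (adjusted p = 4.59e-05), are close to 4-fold and differ by 0.01. Jak1, used by interferon, IL-2 and IL-6 type receptors, read -1.40, -1.32 and -1.36, beyond 2-fold on every array. Jak3, which pairs with the common gamma chain in lymphocytes, was the smallest of the family, at -0.37, -0.65 and -0.66 (adjusted p = 0.00551).

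The STAT factors were nearer to 0, and no probe reached 2-fold. Of 6 tested probes, 2 passed toward spleen, Stat4 and Stat2, and none toward liver, with a median of -0.22. The share past the test, 33.3%, compares with 26.7% toward spleen and 50.2% in either direction among all tested probes. Stat4, the factor of IL-12 signalling in T and NK cells, read -0.95, -0.69 and -0.23, a mean of -0.62 ± 0.36 (adjusted p = 0.0191). Stat2, the interferon factor, read -0.36, -0.36 and -0.24 (adjusted p = 0.0225). With array 1 left out the adjusted p rose to 0.0655 for Stat4 and 0.105 for Stat2, and with array 2 left out to 0.0879 and 0.0949. Stat3, the acute-phase factor of liver, read 0.31, 0.54 and 0.10 on probe 3210 (adjusted p = 0.0606, and 0.0396 without array 3) and -0.10, 0.19 and -0.21 on probe 8943. The near-identical pair Stat5a and Stat5b, which carry growth hormone and prolactin signals, averaged -0.18 ± 0.33 and -0.25 ± 0.12, and neither passed (adjusted p = 0.326 and 0.0598), although Stat5b did with each array centred (0.044). Probes of these paralogs may share signal, which was not resolved here.

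The SOCS family was split. Of 8 tested probes, 2 passed toward spleen, 1 toward liver and 5 did not pass, with a median of 0.01. Socs2, which is induced by growth hormone and restrains it, read 1.07, 1.535 and 0.64 on probe 11039, a mean of 1.08 ± 0.45 toward liver (adjusted p = 0.00441). Its other probe read -0.21, 0.08 and -0.01 and did not pass (adjusted p = 0.721). Socs1 read -0.70, -1.95 and -1.07 on probe 42, toward spleen, with an SD of 0.64 (adjusted p = 0.00887). The other Socs1 probe read 0.47, 0.115 and 0.31 and did not pass (adjusted p = 0.0533), although both probes are annotated to the same transcript. Socs3, the brake on IL-6 type receptors, read -0.58, -0.40 and -0.42 (adjusted p = 0.00695). Probes of Socs5 lay at -0.22 ± 0.39 and 0.06 ± 0.23 and the tested Socs6 probe at 0.09 ± 0.18, with arrays on both sides of 0. The first Socs5 probe passed toward spleen without array 3, at -0.45 (adjusted p = 0.0233). The second Socs6 probe read -0.03 and -0.13 on arrays 2 and 3 and was listed at 0 on array 1.

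Most IRF genes lay toward spleen by less than 2-fold. Of 7 probes, 1 for each gene, 5 passed toward spleen and none toward liver, and the median was -0.64. The share toward spleen was 71.4%, against 26.7% of all tested probes. Irf4, a factor of B cells and plasma cells, read -1.12, -1.13 and -0.49, a mean of -0.91 ± 0.37 (adjusted p = 0.00476). Irf9, a DNA-binding factor of the interferon response, read -0.87, -0.55 and -0.93, a mean of -0.78 ± 0.20. Irf5, which acts below Toll-like receptors in myeloid and B cells, averaged -0.69 ± 0.34. Irf7, the amplifier of type I interferon, read -0.70, -0.60 and -0.62, and Irf1, induced by interferon gamma, read -0.71, -0.53 and -0.59. The 5 means thus spanned -0.91 to -0.61, between 1.88-fold and 1.53-fold. Neighbours in this order did not differ beyond their spread. Irf3, a constitutive factor that is switched on by phosphorylation, averaged 0.0058 ± 0.03 (adjusted p = 0.956). Irf2 read 0.42, -0.15 and -0.16 (adjusted p = 0.85).

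**Figure D3:**
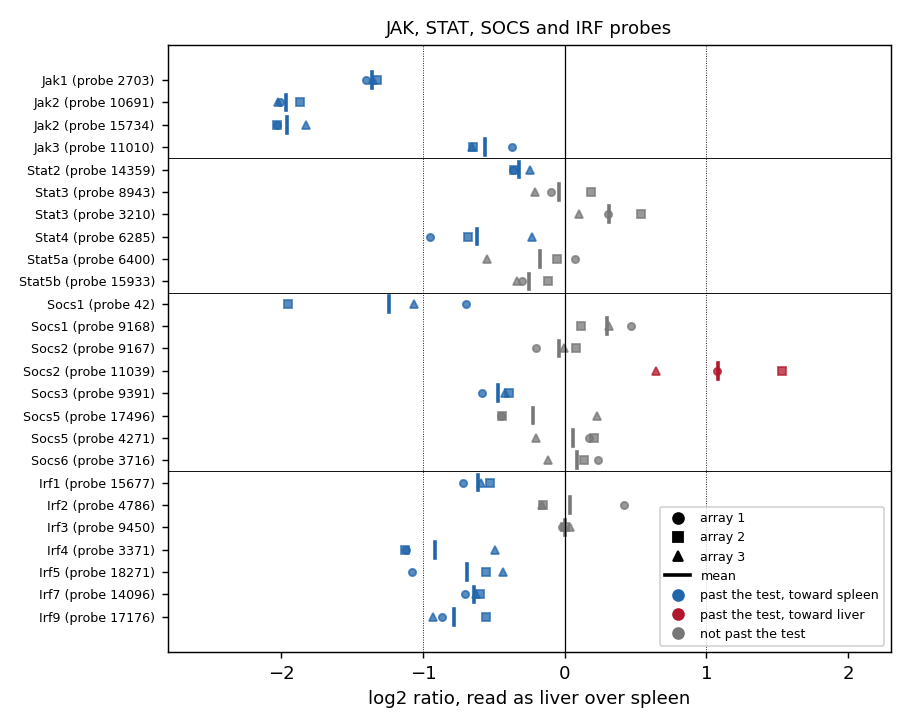
Log2 ratio (horizontal axis, liver over spleen) on each of 3 arrays, by marker shape, and the mean (bar) for each tested JAK, STAT, SOCS and IRF probe. All JAK probes and 5 IRF probes lie left of 0 and past the test. Probe 11039 of Socs2 is the only probe past the test to the right.

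Of the member genes, 13 had more than 1 tested probe, and this mattered for several of the calls. In 7 of them the probes had the same sign. For Jak2 and Tlr2 the largest gap between probe means was 0.01. The means had opposite signs in 6 of the 13 genes, against 34.3% of 2236 genes with several tested probes on the whole array. The gap was over 1 in 3 genes, Socs1 at 1.54, Tlr4 at 1.25 and Socs2 at 1.13, against 15.4% on the whole array. In these 3 genes the higher probe lay above the lower on every array. No member gene had probes past the test in opposite directions. With probes averaged by gene, Socs1 was at -0.47 and Rel at -0.19, neither past the test (adjusted p = 0.0566 and 0.164), Tlr4 at -0.46, Socs2 at 0.52 and Traf1 at -0.85, so that 6 genes, not 9, were 2-fold or more toward spleen and 1 toward liver. Which probe reads its transcript more faithfully was not tested.

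**Figure D4:**
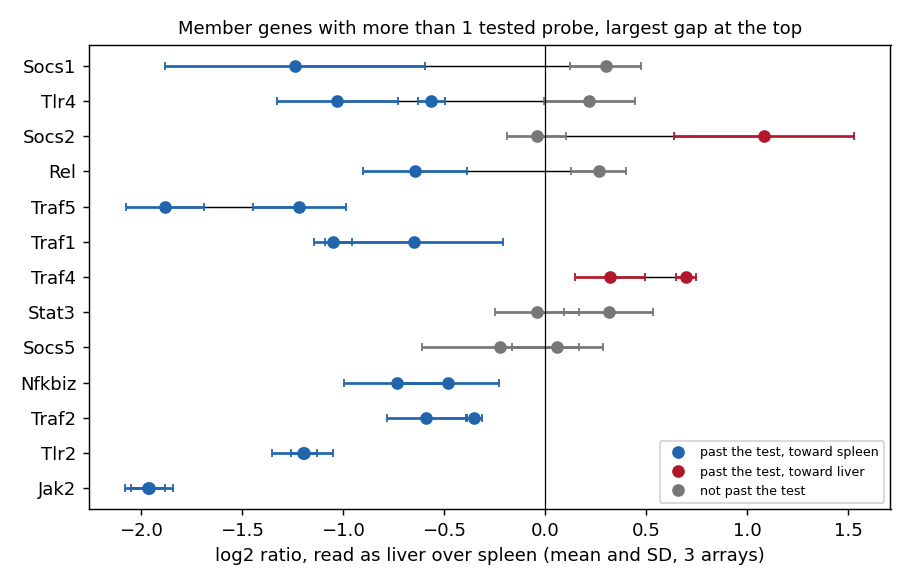
Mean log2 ratio and SD over 3 arrays (horizontal axis, liver over spleen) of every tested probe of the 13 member genes with more than 1, ordered by the gap between probes. Socs1, Tlr4 and Socs2 have gaps over 1, while the probes of Jak2 and Tlr2 coincide.

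The partners of these families in the same routes were also read, from 6 lists of neighbouring genes. The lists were chosen with earlier results of these data known, so their shares are a description only. Over 149 tested probes, 62 passed toward spleen and 19 toward liver, with a median of -0.16. Toward spleen that was 41.6%, against 26.7% of all tested probes. In either direction it was 54.4%, against 50.2%. The count toward liver was 12, 13 and 11 without arrays 1, 2 and 3. Among co-receptors, adaptors and kinases of the Toll-like receptors, 13 of 29 probes passed toward spleen and 8 toward liver, with a median of 0.05. The spleen share was 44.8%, and 23.5% of all tested probes passed toward liver. The plasma lipopolysaccharide-binding protein Lbp, which is made by hepatocytes and acts ahead of Tlr4 in sensing lipopolysaccharide, read 3.32, 3.13 and 3.15 (adjusted p = 1.8e-05). Ly86, the partner of the Tlr4-like B cell receptor Cd180, was at -1.67 ± 0.19 on one probe and -0.56 ± 0.19 on the other. Tab3, a subunit of the kinase complex below TRAF6, read 1.59, 2.42 and 0.49, and did not pass without array 2, where its mean was 1.04 (adjusted p = 0.0518), or with zeros kept (0.102).

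Cytosolic sensors and inflammasome genes lay mainly toward spleen. Of 10 probes of cytosolic sensors and inflammasome parts, 7 passed toward spleen and none toward liver, with a median of -0.47. The spleen share was 70.0%, against 26.7% of all tested probes. The probes cover 7 of the 21 genes on this list, which was chosen with earlier results known. The inflammasome adaptor Pycard read -2.32, -2.39 and -1.84 (adjusted p = 0.000116). Caspase-1 (Casp1), the protease it activates, read -2.63, -2.73 and -2.39 on one probe, while the other was at 0.24 ± 0.10 and not past the test. Naip2 was at -0.77 ± 0.20 and -0.25 ± 0.21 on its probes, the second not past the test. Of 10 probes of NF-kB kinases and regulators, 5 passed toward spleen and none toward liver, with a median of -0.28. Tnip1, a partner of the inhibitor A20, was at -1.79 ± 0.08 on its tested probe. Another Tnip1 probe read 0.16 and 0.39 on arrays 1 and 2 and was listed at 0 on array 3. Tnip2, a relative of Tnip1, was at -0.69 ± 0.31 (not past the test with zeros kept, adjusted p = 0.0544). The lymphocyte adaptor Bcl10 was at -0.44 ± 0.14, which did not pass without array 2 (adjusted p = 0.0582).

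The receptors that use JAKs held the extremes of both sides. Of 49 tested probes, 21 passed toward spleen and 4 toward liver, with a median of -0.11. Toward spleen that was 42.9%, against 26.7% of all tested probes. In either direction it was 51.0%, against 50.2%. The growth hormone receptor Ghr read 4.61, 4.80 and 3.90 on one probe, a mean of 4.44 ± 0.47 or 21.6-fold toward liver (adjusted p = 3.67e-05), and -0.06 ± 0.09 on the other. The leukemia inhibitory factor receptor Lifr, of the IL-6 type, was at 3.17 ± 0.12 on its tested probe. Another Lifr probe read only 0.32 and 0.04 on arrays 1 and 3 and was listed at 0 on array 2. Other IL-6 type receptors did not share its direction. Osmr passed toward spleen at -1.82 ± 0.04 and -1.36 ± 0.41 on its tested probes, and Il6st did not pass at 0.07 or -0.05. Il6ra passed toward liver on one probe, at 0.57, and toward spleen on another, at -0.63. A further Il6ra probe read 1.80 and 1.00 on arrays 1 and 3 and was listed at 0 on array 2. The IL-7 receptor Il7r of lymphocytes was at -2.82 ± 0.12. Of 25 probes of the kinase Tyk2 and JAK-STAT regulators, 5 passed toward spleen and 4 toward liver, with a median of 0.01. These shares, 20.0% toward spleen and 36.0% in either direction, were below the 26.7% and 50.2% of all tested probes. Cish, like Socs2 a growth hormone-induced member of the SOCS family by structure, read 1.40, 1.38 and 1.20 on one probe and averaged 0.35 ± 0.14 on the other, both past the test toward liver. Tyk2, the fourth JAK kinase, was at -1.08 ± 0.13 on one probe and at -0.16 ± 0.26, not past the test, on the other. The phosphatase Ptpn2 was at -0.94 ± 0.16 and -0.88 ± 0.19.

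Genes induced by interferon showed both directions below these factors. Of 26 probes, 11 passed toward spleen and 3 toward liver, with a median of -0.23. Toward spleen that was 42.3%, against 26.7% of all tested probes. In either direction it was 53.8%, against 50.2%. Viperin (Rsad2) read -2.01, -1.79 and -2.09 and the ubiquitin-like Isg15 -1.80, -1.32 and -1.44, with a second Isg15 probe at 0.16 ± 0.12 not past the test. The GTPase Iigp1 went the other way at 1.53 ± 0.06 (adjusted p = 7.5e-05), above 0 on all arrays.

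**Figure D5:**
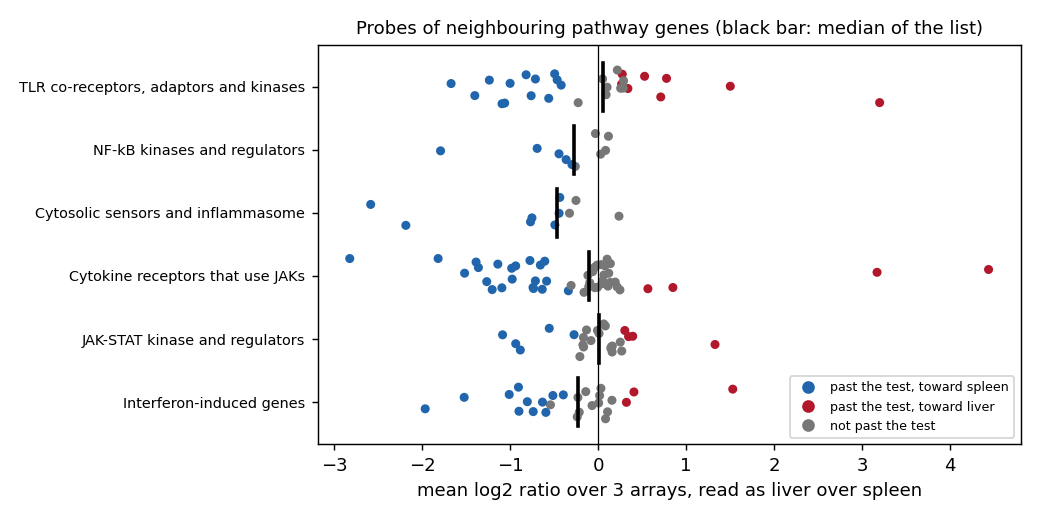
Mean log2 ratio over 3 arrays (horizontal axis, liver over spleen) of each tested probe in 6 lists of neighbouring pathway genes, coloured by the call, with the median of each list as a black bar and points spread vertically for legibility. Ghr at 4.44, Lbp at 3.20 and Lifr at 3.17 lie furthest to the right and Il7r at -2.82 furthest to the left.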

How the data were processed

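The deposited table gives 1 log2 ratio of the channels per probe and array. No source names its base, which was inferred from the ceiling of the ratios, 6.64, equal to log2 of 100. The deposited log2 ratios have a median of 0 on each array with the exact zeros counted, and of 0.02, 0.04 and 0.0082 on arrays 1, 2 and 3 without them. How the authors corrected background, normalized dyes or filtered spots is not given in the sources used here. No intensities were used. Depth has no meaning for arrays, and their number, 3, limits the precision.

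Exact zeros, 1098 to 1414 per array, were taken as no measurement. Probes were named from the platform annotation (2016). All 61 member symbols matched RefSeq through their Entrez numbers. Of all probes, 52 had several symbols and 2491 none. They stayed in the fit unnamed. The probe was the unit. Each was tested against 0 with limma 3.58.1 (R 4.3.3), intercept-only, with eBayes (3.38 prior degrees of freedom), two-sided, Benjamini-Hochberg adjusted. The fit was tested on simulated data. The members, the lists and the motifs were chosen with earlier results of these data known. All members may be named. From each list of neighbouring genes, the 3 probes furthest from 0 past the test and the furthest in the other direction were named, with their genes' other probes. Osmr, Il6st and Il6ra were named in addition, beside Lifr. Alternatives were centring, scaling to one median absolute value, zeros kept, gene averages, probes on at least 2 arrays, robust moderation, and leaving out each array. No set test was run.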

Additional observations from a re-analysis of the deposited data

How the results depend on the processing

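Of the 56 tested member probes, all 56 kept their direction and side of the threshold with arrays scaled to one spread, with robust moderation, or with probes measured on at least 2 arrays. With each array centred on its median, 52 did, and Irf3, not past the test, turned to -0.02. With exact zeros kept, 48 did, and 7 lost their call while Rela gained one (adjusted p = 0.0436). The tested member probes hold no exact zero, so their means did not change. With zeros kept, the fit and the adjustment ran over 16281 probes rather than 14122. Which part of the fit moved the p-values was not tested. With zeros kept, 1 member was 2-fold or more toward liver. With probes of a gene averaged, which tests fewer units, 6 genes were 2-fold or more toward spleen, 1 toward liver, and 12 of the neighbouring pathway genes passed toward liver. Leaving out 1 array at a time, the members past the test toward liver numbered 3 to 5, those at 2-fold or more toward liver 0 to 2, and the pathway probes toward liver 11 to 13. The share of all tested probes past the test then fell as well, from 50.2% to between 38.1% and 43.1%. Without array 3, probes of Socs5 and Stat3 gained a call. No call changed direction. Probes not past the test that changed sign ranged as follows: Irf2 from -0.16 to 0.13, Irf3 from -0.0092 to 0.0198, Nfkbie from -0.065 to 0.13, probe 9167 of Socs2 from -0.11 to 0.038, probe 4271 of Socs5 from -0.014 to 0.19, probe 8943 of Stat3 from -0.15 to 0.046, Stat5a from -0.30 to 0.0069, and Tlr9 from -0.017 to 0.16. No paired analysis was possible because the arrays form 1 group and share no replicate numbers with another; each ratio already sets the RNAs of 1 array against each other.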
